A study of Mus musculus with 9 samples.

Results

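The HSP70 chaperone family was followed through 9 mRNA libraries of male germ cells sorted from mouse testes. The genes were taken by name from the count table and are Hspa1a, Hspa1b, Hspa1l, Hspa2, Hspa4, Hspa4l, Hspa5, Hspa8, Hspa9 and Hspa14, 10 of its 24505 genes. Hspa2 and Hspa1l are the 2 germline members, and the other 8 are expressed more generally. HSP70 proteins bind unfolded stretches of other proteins and release them in a cycle driven by ATP. J-domain proteins load clients and start ATP hydrolysis, and nucleotide exchange factors, which include the HSP110 relatives Hspa4 and Hspa4l, reset the cycle. In the testis HSPA2 is known as the HSP70 of meiotic cells, and male mice that lack it arrest as spermatocytes, while HSPA1L is known from later, haploid cells.

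The libraries came from 3 groups of 3. In/B cells were intermediate and type B spermatogonia of postnatal day (P) 17, and preleptotene (PL) spermatocytes of P19, the cells about to enter meiosis, came either from RA-sufficient or from RA-deficient testes. All mice carried Uchl1-eGfp on a C57BL/6 background outcrossed to CD-1, and cells were sorted by EGFP, which the Uchl1 promoter drives brightly in spermatogonia and dimly in spermatocytes. All groups, In/B included, had received WIN 18,446 (WIN), an inhibitor of retinoic acid (RA) synthesis, at 100 µg per g body weight daily from P1 to P10 (to P11 in the sample records), and on P11 were injected once with RA (10 µl, 10 µg per µl). WIN was then stopped in RA-sufficient mice and continued in RA-deficient mice. The paper describes the In/B cells as RA-sufficient, so no In/B group with continued WIN was among these libraries. Pups of a litter were pooled for each sort, and testes were dissociated in warm trypsin, a step that can itself induce heat shock genes. The study names either 2 or 3 independent cell preparations, so p-values measure the spread between these libraries and part of that spread may be technical.

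Total counts ran from 12612959 to 27042274 per library, and 14769 to 15327 genes were detected in RA-deficient libraries against 16758 to 18434 in the others. The labels were checked with marker genes, given as summed CPM, counts scaled to the size of the library. Early meiotic markers (Stra8, Rec8, Sycp3, Dmc1 and Spo11) summed to 217 to 473 CPM in In/B, 1297 to 1639 in RA-sufficient PL and 1417 to 1583 in RA-deficient PL. Sycp3, Dmc1 and Spo11 were higher in every PL library than in any In/B library, whereas Stra8 and Rec8 overlapped. Rec8 was at 17.5, 98.4 and 96.1 CPM in In/B, 45.3, 32.1 and 30 in RA-sufficient PL and 29.4, 39.5 and 5.86 in RA-deficient PL. Stra8 was at 444, 126 and 121 CPM in RA-sufficient PL and 377, 365 and 81.5 in RA-deficient PL. Spermatogonia markers (Kit, Dmrt1 and Sohlh1) summed to 929 to 1224 CPM in In/B and 104 to 120 in RA-sufficient PL. In RA-deficient PL they summed to 1082 and 1072 in replicates 1 and 2, as high as in In/B, and to 147 in replicate 3. Replicate 3 thus lay near RA-sufficient PL and apart from the rest of its group. Kit was at 404, 327 and 331 CPM in In/B and at 561, 521 and 20.3 CPM in RA-deficient PL. Uchl1, whose promoter drives the EGFP, was at 3657, 2451 and 2352 CPM in In/B. It was at 425, 613 and 525 CPM in RA-sufficient PL and at 1728, 1885 and 991 CPM in RA-deficient PL. Markers of Sertoli cells, the somatic cells of the tubule, were measured for 6 of 7 genes and summed to 63.4 to 322 CPM in In/B, 2586 to 3345 in RA-sufficient PL and 264 to 466 in RA-deficient PL. Values without RA-deficient replicate 3 are given for every member and for the named partners it moved most. Those values rest on replicates 1 and 2, whose spermatogonia markers were as high as in In/B. The part of the Sertoli signal in the results was not tested. In bulk libraries fewer cells of a type and less RNA per cell cannot be told apart.

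Several members are so alike that reads of one can match another, so their sequences come first. The lines show 60 bases near the start of the coding region, which codes for the ATP-binding domain, beginning at coding base 13 of Hspa1a. They were read from the mm9 genome on the coding strand, and capitals mark bases that differ from Hspa1a.
Hspa1a (chr17:35108799-35108858, minus strand): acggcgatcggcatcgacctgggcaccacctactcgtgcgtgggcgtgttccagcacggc
Hspa1b (chr17:35095881-35095940, minus strand): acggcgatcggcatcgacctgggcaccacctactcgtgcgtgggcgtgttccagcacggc
Hspa1l (chr17:35113950-35114009, plus strand): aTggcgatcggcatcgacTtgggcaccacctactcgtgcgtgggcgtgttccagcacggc
Hspa2 (chr12:77505536-77505595, plus strand): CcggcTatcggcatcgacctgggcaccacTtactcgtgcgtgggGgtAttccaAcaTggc
Hspa8 (chr9:40610018-40610077, plus strand): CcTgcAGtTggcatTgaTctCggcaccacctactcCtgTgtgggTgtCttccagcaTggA
Hspa1b was identical to Hspa1a here, and Hspa1l differed at 2, Hspa2 at 7 and Hspa8 at 14 bases. Over the whole coding region 99.58% of aligned bases were identical between Hspa1a and Hspa1b, 83.43% between Hspa1a and Hspa1l, 79.98% between Hspa1a and Hspa2 and 76.08% between Hspa2 and Hspa8.

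The 3 stress and spermatid genes Hspa1a, Hspa1b and Hspa1l lie side by side on chromosome 17 (mm9 35106144 to 35109069, 35093381 to 35096183, and 35109648 to 35116229), with Hspa1l pointing away from Hspa1a. Hspa2 lies on chromosome 12 (77505163 to 77507921) and has 2 exons. Of the windows of 75 bases, the length of a read, that tile each longest coding transcript, only 45.2% for Hspa1a and 44.2% for Hspa1b occur once in the genome. Most of the shared windows, 1518, are shared between that pair. For Hspa8, the constitutive cytosolic HSP70, 30.5% of windows were unique and 1613 occur again elsewhere in the genome, outside the other members. Hspa2 was 99.9% unique, Hspa1l 92.8% and the other members 97.4% or more. How reads with several matches were counted is not given in the sources used here, so levels of Hspa1a, Hspa1b and Hspa8 are uncertain. Exons of Hspa1l overlap those of the noncoding gene Gm10501 on the opposite strand over 1778 bases, and exons of Hspa1a overlap those of Gm20481 over 552 bases. Whether counting used strand is not given either, so reads of those pairs may be mixed. Exons of Hspa14 overlap those of another protein-coding gene of the same name over 290 bases on the same strand. Strand cannot separate reads there.

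Promoters show how differently the members begin. The 150 bases before the start of 4 members follow, from RefSeq on GRCm38.p6 on the gene's strand, with matches to a heat shock element (GAANNTTC or TTCNNGAA) or to an endoplasmic reticulum stress element (CCAAT and CCACG with any 9 bases between) in capitals. They are shown because these members stand for the germline, stress and endoplasmic reticulum branches.
Hspa2 (chr12:76404220-76404369, plus strand): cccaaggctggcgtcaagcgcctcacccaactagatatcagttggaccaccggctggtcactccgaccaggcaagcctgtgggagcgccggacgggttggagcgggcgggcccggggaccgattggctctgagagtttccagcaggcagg
Hspa1l (chr17:34972553-34972702, plus strand): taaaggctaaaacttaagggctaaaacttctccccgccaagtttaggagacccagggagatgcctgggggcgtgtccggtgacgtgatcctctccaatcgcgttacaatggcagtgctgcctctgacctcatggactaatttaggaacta
Hspa1a (chr17:34972157-34972306, minus strand): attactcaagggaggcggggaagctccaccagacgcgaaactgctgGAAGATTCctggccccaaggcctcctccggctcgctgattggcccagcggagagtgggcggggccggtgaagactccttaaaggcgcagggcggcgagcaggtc
Hspa5 (chr2:34771940-34772089, plus strand): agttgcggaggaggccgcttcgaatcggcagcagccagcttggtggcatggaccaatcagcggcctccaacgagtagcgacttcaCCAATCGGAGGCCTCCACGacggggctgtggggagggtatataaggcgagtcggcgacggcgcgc
Promoters were matched for 8 of 10 members, Hspa8 and Hspa9 being the others, and 250 bases before each start were searched on both strands. A heat shock element was found in Hspa1a and Hspa1b, 104 bases before the start in each, and in none of the other 6. Of all 32851 promoters searched in the same way, 12.8% held it. The pair shared 247 of 250 promoter bases. An endoplasmic reticulum stress element was found in Hspa5, 65 bases before the start, and in no other member, against 0.113% of all promoters. CCAAT, which that element contains, was found in Hspa1a, Hspa1b, Hspa1l, Hspa2, Hspa5 and Hspa14 and in 33.8% of all promoters. A match describes letters in this window and not a site in use.

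By mean level Hspa8 led the family in spermatogonia and Hspa5 in RA-sufficient spermatocytes. In In/B the libraries of Hspa8 and Hspa5 overlapped by full transcript length. In RA-deficient PL a clear lead of Hspa5 depended on the length used, as given below. Levels were compared between genes as RPKM, which is CPM per kilobase of the longest coding transcript, and are given as mean ± SD over 3 libraries. In In/B cells Hspa8 was highest (364 ± 25.4) and Hspa5, the HSP70 of the endoplasmic reticulum also called BiP, came next (300 ± 63.7), and their libraries overlapped. Hspa9 (128 ± 9.12), the mitochondrial HSP70, Hspa4 (111 ± 2.96) and Hspa14 (107 ± 6.50), a member that works on the ribosome, followed, and the last pair overlapped. Hspa2 lay well below them at 25.7 ± 3.09, above Hspa4l at 15.7 ± 0.627. That order rests on the long Hspa4l transcript of 9479 bases, of which 2517 are coding. Divided by coding length instead, Hspa4l was at 59.0 and Hspa2 at 34.05 in In/B. By that length they were at 116 and 156 in RA-sufficient PL and at 94.7 and 91.4 in RA-deficient PL. Hspa1l, Hspa1b and Hspa1a stood at 1.44, 1.29 and 0.698, and neighbours in that order overlapped.

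In RA-sufficient PL the order of RPKM began with Hspa5 at 978 ± 215, with no overlap with the next. Hspa8 (177 ± 31.6), Hspa2 (118 ± 38.3) and Hspa9 (116 ± 8.86) came next, each overlapping its neighbour. In RA-deficient PL the order was Hspa5 (910 ± 180), Hspa8 (255 ± 56.1), Hspa9 (155 ± 3.20) and Hspa2 (69.0 ± 24.4), with overlap only between Hspa2 and Hspa4 (63.3 ± 2.32) after it. Hspa1l, Hspa1b and Hspa1a closed the order in all 3 groups, at 1.71 RPKM or less. If reads with several matches were dropped before counting, the length that can hold a read is shorter. By unique windows alone, the cytosolic members, mostly Hspa8, took 64.7%, 36.8% and 43.5% of the family's RPKM in In/B, RA-sufficient PL and RA-deficient PL, against 37.3%, 20.1% and 22.0% by full length. Hspa5 then took 15.8%, 51.2% and 43.5%, against 28.2%, 64.6% and 59.9% by full length. In RA-deficient PL Hspa5 (820 to 1159) and Hspa8 (653 to 1020) overlapped by unique windows, so neither led clearly there.

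**Figure D1:**
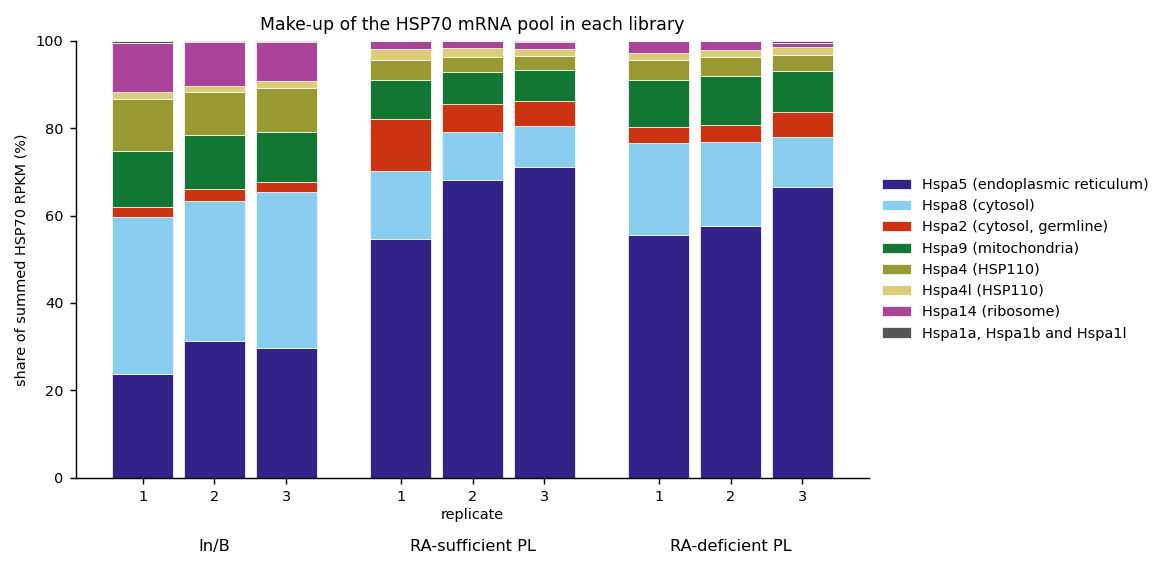
Share of the summed HSP70 RPKM, by full transcript length (%, stacked bars), taken by each member in each of the 9 libraries. Hspa5 takes 23.8 to 31.3% of the pool in In/B, 54.7 to 71.1% in RA-sufficient PL and 55.5 to 66.5% in RA-deficient PL, and Hspa2 is widest in RA-sufficient replicate 1.

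The 2 germline members together made up 2.57 ± 0.136% of the family's RPKM in In/B, 8.13 ± 3.25% in RA-sufficient PL and 4.59 ± 1.19% in RA-deficient PL. Nearly all of it was Hspa2. Per library the share was 2.61, 2.69 and 2.42% in In/B, 11.9, 6.51 and 6.00% in RA-sufficient PL and 3.71, 4.10 and 5.95% in RA-deficient PL. Both PL groups lay wholly above In/B, and the highest RA-deficient library, replicate 3, came just short of the lowest RA-sufficient one. Without replicate 3 the RA-deficient share was 3.91%. The summed CPM of the family was 2974 ± 222 in In/B, 4229 ± 363 in RA-sufficient PL and 4228 ± 425 in RA-deficient PL. Without Hspa5 the sums were 2190 ± 58.2, 1674 ± 250 and 1849 ± 57.5 CPM, so the larger sum in PL was that of Hspa5. These shares describe chosen members and carry no test.

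**Figure D2:**
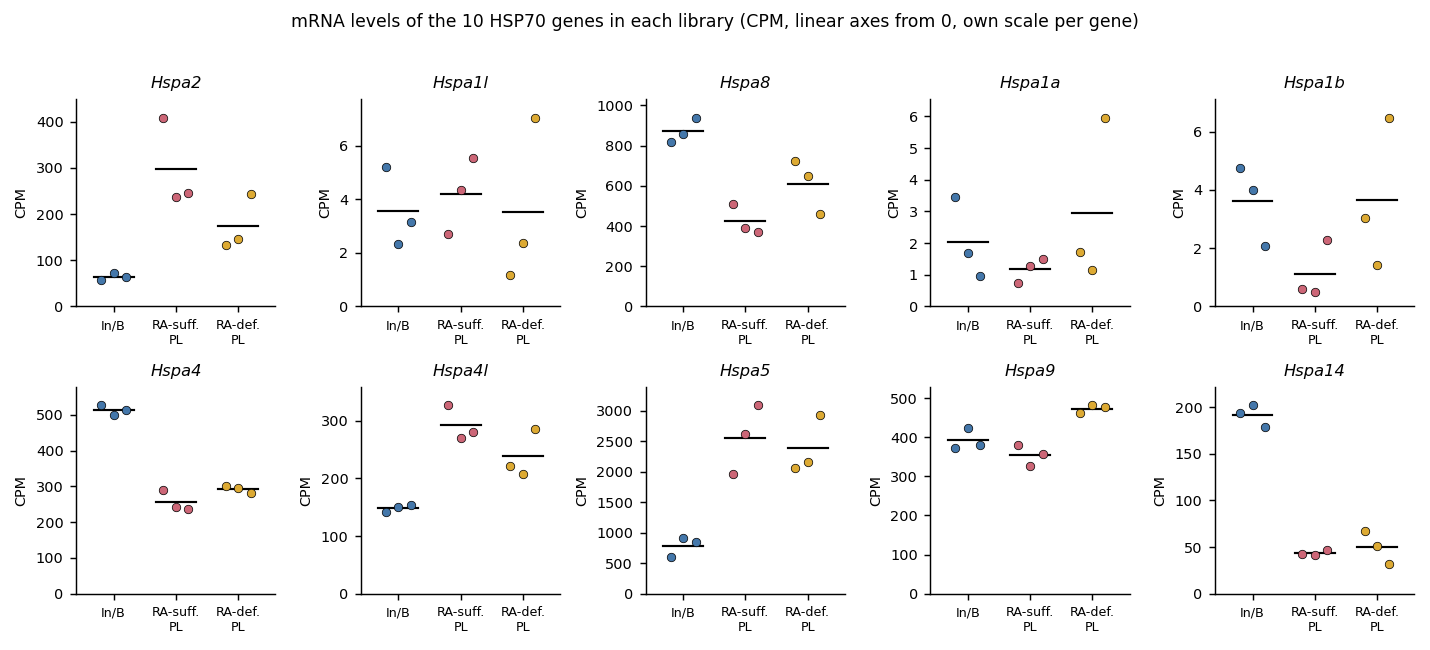
CPM of each HSP70 gene in each library (points) with the mean of 3 libraries (line), on linear axes that start at 0 and differ between genes. Hspa2, Hspa4l and Hspa5 are higher in all 6 PL libraries than in any In/B library, and Hspa4, Hspa8 and Hspa14 are lower.

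For RA-sufficient PL against In/B, the question was how expression changes as cells enter meiosis with RA present. Hspa2, Hspa5 and Hspa4l rose and Hspa14 fell. A gene was called when its log2 fold change was above 1 in size and the p of edgeR's quasi-likelihood test, adjusted after Benjamini-Hochberg over all genes tested, was below 0.05. All 10 members passed the filter on low counts and 4 were called, beside 45.4% of the 15001 genes tested. Of the members 3 were called higher, against 26.1% of all genes, and 1 was called lower, against 19.3%. With adjusted p alone 6 passed, beside 65% of all genes, 3 of them higher (33.8% of all genes) and 3 lower (31.2%). The shares of members called are thus near the background. Across the alternatives 4 to 6 members were called, since Hspa8, Hspa1b, Hspa4 and Hspa4l lay close to a threshold. The median log2 fold change was -0.41 over the members and 0.04 over all genes.

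Hspa2 was at 57.6, 73.0 and 63.6 CPM in In/B and at 408, 237 and 245 CPM in RA-sufficient PL. All PL libraries lay far above all In/B libraries, with PL replicate 1 the highest. The log2 fold change was 2.25 (SE 0.22, edgeR adjusted p = 5.77e-05), a 4.77-fold rise, and stayed between 1.94 and 2.39 with any library left out. Hspa1l, the other germline member, was at 5.20, 2.34 and 3.17 CPM in In/B and at 2.72, 4.37 and 5.56 CPM in RA-sufficient PL. The groups overlapped and the log2 fold change was 0.30 (SE 0.43, edgeR adjusted p = 0.554). An interval of 2 SE on each side, from -0.55 to 1.15, leaves room for changes either way at this depth of 37 to 126 counts per library.

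Among the cytosolic members of general expression, Hspa8 was at 819, 856 and 937 CPM in In/B and at 510, 390 and 370 CPM in RA-sufficient PL. It was lower in every PL library, with a log2 fold change of -0.99 (SE 0.14, edgeR adjusted p = 0.000417), just short of the size needed for a call. It passed that size without RA-sufficient replicate 1 (-1.15), In/B replicate 1 or In/B replicate 2 (both -1.03). It also did so, with a log2 fold change of -1.03 at the furthest, with library size scaling, with no filter on low counts, in a single fit of all 9 libraries and by DESeq2. Hspa2 and Hspa8 thus moved in opposite directions, and the ratio of their RPKM went from 0.0668, 0.0810 and 0.0645 in In/B to 0.761, 0.578 and 0.630 in RA-sufficient PL. Hspa2 made up 6.55 ± 0.775% of cytosolic HSP70 RPKM in In/B and 39.2 ± 3.49% in RA-sufficient PL. Counted on unique windows only, those shares were 2.10 and 16.5%.

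The stress-inducible pair was near the floor. Hspa1a was at 3.47, 1.70 and 0.961 CPM in In/B and at 0.736, 1.27 and 1.5 CPM in RA-sufficient PL, and the groups overlapped. Its log2 fold change was -0.73 (SE 0.57, edgeR adjusted p = 0.282). Hspa1b was at 4.75, 4.01 and 2.09 CPM in In/B and at 0.589, 0.485 and 2.29 CPM in RA-sufficient PL, where replicate 3 lay within the In/B range. Its log2 fold change was -1.59 (SE 0.64, edgeR adjusted p = 0.0536), which missed the threshold here and passed it without RA-sufficient replicate 3 (edgeR adjusted p = 0.00672) or without In/B replicate 3 (edgeR adjusted p = 0.0427). It passed also with RLE scaling (edgeR adjusted p = 0.0497), with no filter (edgeR adjusted p = 0.0405) and by DESeq2 (adjusted p = 0.0253). Reads cannot be assigned with certainty within this pair.

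The HSP110 members Hspa4 and Hspa4l moved apart. Hspa4 was at 527, 500 and 514 CPM in In/B and at 291, 242 and 237 CPM in RA-sufficient PL, without overlap. Its log2 fold change of -0.95 (SE 0.12, edgeR adjusted p = 0.000182) was short of a call, and reached it at -1.06 without RA-sufficient replicate 1. Hspa4l, known for high expression in the testis, was at 142, 150 and 154 CPM in In/B and at 327, 270 and 281 CPM in RA-sufficient PL. It rose by a log2 fold change of 1.03 (SE 0.11, edgeR adjusted p = 0.000100). This call sat at the threshold and was lost in 3 alternatives, at 0.94 without RA-sufficient replicate 1, at 1.00 without In/B replicate 1 and at 0.99 with all 9 libraries in a single fit. The ratio of Hspa4l to Hspa4 counts was 0.290 ± 0.0173 in In/B and 1.14 ± 0.03995 in RA-sufficient PL.

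The organelle members differed from each other. Hspa5, whose promoter holds the endoplasmic reticulum stress element shown above, was at 595, 910 and 847 CPM in In/B and at 1965, 2616 and 3085 CPM in RA-sufficient PL. It rose in every PL library, by a log2 fold change of 1.76 (SE 0.20, edgeR adjusted p = 0.000120). Hspa9 was at 372, 424 and 380.1 CPM in In/B and at 380, 326 and 358 CPM in RA-sufficient PL. The groups overlapped, with a log2 fold change of -0.09 (SE 0.11, edgeR adjusted p = 0.491) and an interval of 2 SE from -0.30 to 0.13. Hspa14, which with a J-domain protein forms a complex on the ribosome, was at 194, 202 and 179 CPM in In/B and at 42.3, 41.4 and 46.6 CPM in RA-sufficient PL. It fell in every PL library, by 2.08 on the log2 scale (SE 0.12, edgeR adjusted p = 1.1e-05). Beside all of these values, the Sertoli sum was at least 2586 CPM in every RA-sufficient library and at most 322 in In/B, and its part in them was not tested.

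**Figure D3:**
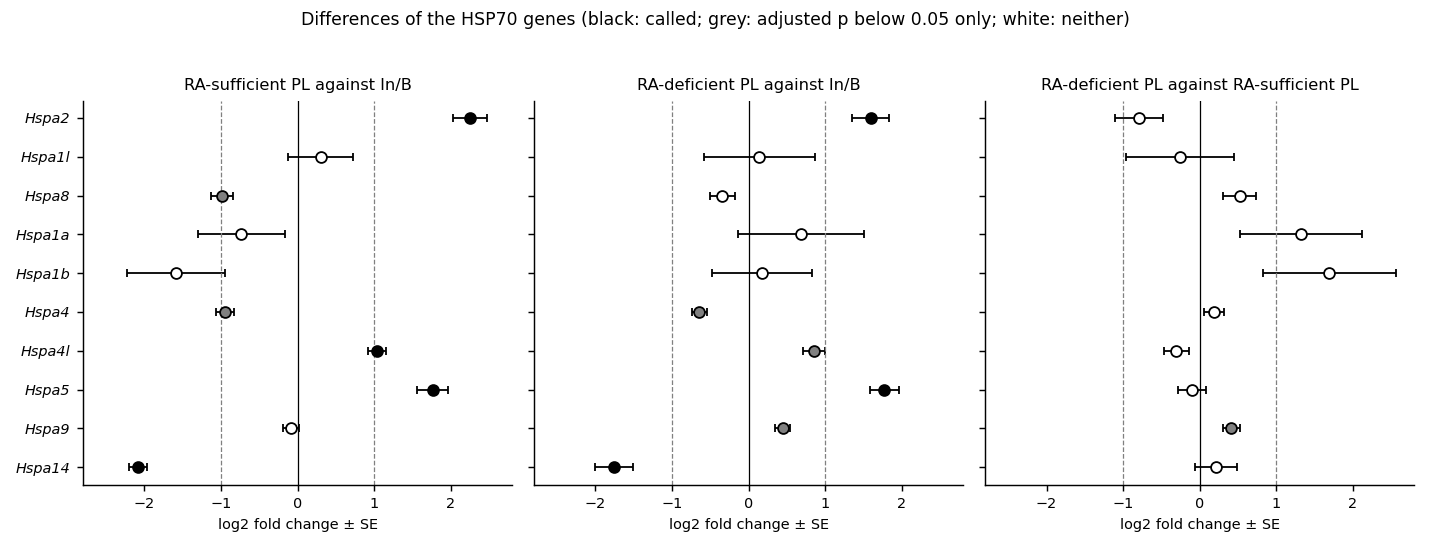
Log2 fold change ± SE of each HSP70 gene in the 3 comparisons, from edgeR on 3 libraries per group; dashed lines mark a change of 1. Hspa2, Hspa5 and Hspa14 are called in both comparisons with In/B, Hspa4l in the RA-sufficient one alone, and no member between the PL groups.

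For RA-deficient PL against In/B, RA synthesis was blocked after P11 in the PL group alone, so stage and treatment differ together. The In/B libraries are those of the first comparison, so the results are not independent of it. Hspa2 and Hspa5 rose and Hspa14 fell. Of the 10 members 3 were called, beside 23.2% of the 14877 genes tested. Of these 2 were higher, against 11.4% of all genes, and 1 was lower, against 11.8%. With adjusted p alone 6 passed, beside 36.7% of all genes, 4 of them higher (18.4% of all genes) and 2 lower (18.3%). The median log2 fold change was 0.31 over the members and 0.00 over all genes.

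Hspa2 was at 132, 145 and 244 CPM in RA-deficient PL. All 3 libraries lay above In/B, and replicate 3 was the highest. The log2 fold change was 1.59 (SE 0.24, edgeR adjusted p = 0.00171), and without replicate 3 it was 1.27. Hspa1l was at 1.16, 2.38 and 7.04 CPM, a range that enclosed all In/B values, with a log2 fold change of 0.14 (SE 0.73, edgeR adjusted p = 0.905). Hspa1a was at 1.72, 1.15 and 5.95 CPM and Hspa1b at 3.04, 1.43 and 6.47 CPM. For these 3 genes RA-deficient replicate 3 was the highest of all 9 libraries, and neither Hspa1a (0.68, SE 0.82, edgeR adjusted p = 0.567) nor Hspa1b (0.18, SE 0.65, edgeR adjusted p = 0.866) passed the test. Without replicate 3 the log2 fold changes were -0.34 for Hspa1a, -0.53 for Hspa1b and -0.85 for Hspa1l. Leaving out a control library also turned Hspa1b (-0.10 without In/B replicate 3) and Hspa1l (-0.12 without In/B replicate 2), so no direction can be given for them.

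Hspa8 was at 721, 650 and 462 CPM in RA-deficient PL. Each of these lay below all In/B libraries, yet the log2 fold change of -0.34 (SE 0.17, edgeR adjusted p = 0.146) did not pass the test. Hspa4 was at 301, 296 and 280 CPM, with a log2 fold change of -0.64 (SE 0.10, edgeR adjusted p = 0.00174). Hspa4l was at 222, 208 and 285 CPM, with a log2 fold change of 0.85 (SE 0.14, edgeR adjusted p = 0.00274). Neither HSP110 gene reached the size needed for a call, and neither overlapped In/B. Without replicate 3 the log2 fold changes were -0.17 for Hspa8, whose lowest library it was, -0.61 for Hspa4 and 0.70 for Hspa4l.

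Hspa5 was at 2066, 2151 and 2919 CPM in RA-deficient PL. It rose by a log2 fold change of 1.77 (SE 0.19, edgeR adjusted p = 0.000336), in libraries whose Sertoli sum was 264 to 466 CPM. Hspa9 was at 462, 481 and 476 CPM, above every In/B library, with a log2 fold change of 0.44 (SE 0.09, edgeR adjusted p = 0.00746). Scaled by library size only, which moved the median of all genes from 0.00 to -0.31, Hspa9 was at 0.12 (edgeR adjusted p = 0.319). Hspa14 was at 67.5, 51.4 and 32.2 CPM, and fell by 1.76 on the log2 scale (SE 0.25, edgeR adjusted p = 0.00134). Without replicate 3 the log2 fold changes were 1.603 for Hspa5, 0.44 for Hspa9 and -1.52 for Hspa14. Groups did not overlap for 7 of 10 members here, beside 54.6% of all genes, and for 6 of 10 in the RA-sufficient comparison, beside 71.5%.

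The comparison of the PL groups asks what differed when RA synthesis was blocked after P11. The Sertoli sum was 2586 to 3345 CPM in RA-sufficient PL and 264 to 466 CPM in RA-deficient PL. Spermatogonia markers were high in RA-deficient replicates 1 and 2. Treatment and cell content cannot be told apart here. No member was called. The count was 0 of 10 by edgeR, beside 15.5% of the 15352 genes tested (4.47% higher and 11% lower), and 0 by DESeq2, while 3 members had an unadjusted p below 0.05. With adjusted p alone 1 passed, Hspa9, which was higher, beside 23.6% of all genes (11% higher and 12.6% lower). Hspa9 was higher in all RA-deficient libraries than in any RA-sufficient library, with a log2 fold change of 0.41 (SE 0.11, edgeR adjusted p = 0.0339), and was the only member without overlap, beside 47.4% of all genes. Its edgeR adjusted p was 0.134 without RA-sufficient replicate 2, 0.119 without RA-sufficient replicate 3, 0.0706 without RA-deficient replicate 1 and 0.0856 without RA-deficient replicate 2. With library size scaling it was 0.159. The median log2 fold change was 0.20 over the members and -0.09 over all genes.

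Hspa2 was lower in RA-deficient PL by a log2 fold change of -0.79 (SE 0.31), which did not pass the test (edgeR adjusted p = 0.110). RA-deficient replicates 1 and 2, at 132 and 145 CPM, lay below all RA-sufficient libraries and replicate 3, at 244 CPM, lay among them. Without replicate 3 the log2 fold change was -1.09 (edgeR adjusted p = 0.0107), past both thresholds. Hspa8 showed the opposite pattern, with replicates 1 and 2 above all RA-sufficient libraries and replicate 3 at 462 CPM within them. Its log2 fold change was 0.52 (SE 0.21, edgeR adjusted p = 0.119), and 0.71 without replicate 3 (edgeR adjusted p = 0.00999).

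The ratio of Hspa2 to Hspa8 RPKM was 0.174, 0.212 and 0.503 in RA-deficient PL, between In/B and RA-sufficient PL in each library. Hspa2 made up 14.7, 17.4 and 32.7% of cytosolic HSP70 RPKM there, against 36.3 to 43.0% in RA-sufficient PL. The ratio of Hspa4l to Hspa4 counts was 0.739, 0.701 and 1.02, also between the other groups. Replicate 3, the library with few spermatogonia markers, was nearest to RA-sufficient PL in all 3 measures. For the remaining abundant members the log2 fold changes were -0.30 (SE 0.16) for Hspa4l, 0.18 (SE 0.13) for Hspa4, -0.10 (SE 0.19) for Hspa5 and 0.21 (SE 0.27) for Hspa14. Hspa4l passed adjusted p, though not the size needed, without RA-deficient replicate 3 (-0.44, edgeR adjusted p = 0.0264). Without that library Hspa9 was at 0.42, Hspa4 at 0.23, Hspa5 at -0.27 and Hspa14 at 0.46, and of these Hspa9 alone passed adjusted p. Intervals of 2 SE ran from -0.62 to 0.01 for Hspa4l and from -0.47 to 0.27 for Hspa5. For the scarce members they were 1.32 (SE 0.80) for Hspa1a, 1.69 (SE 0.86) for Hspa1b and -0.26 (SE 0.70) for Hspa1l, with edgeR adjusted p of 0.268, 0.197 and 0.818. Without RA-deficient replicate 3, Hspa1a was at 0.29, Hspa1b at 0.98 and Hspa1l at -1.25 (edgeR adjusted p = 0.126 for Hspa1l).

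**Figure D4:**
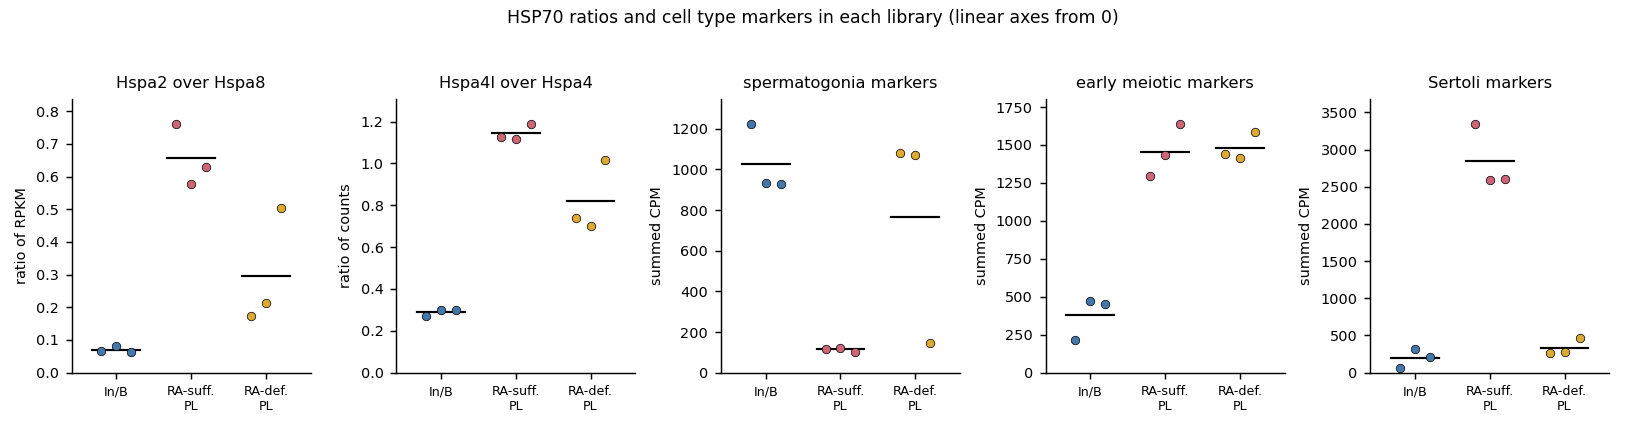
Ratio of Hspa2 to Hspa8 (RPKM), ratio of Hspa4l to Hspa4 (counts) and summed CPM of spermatogonia, early meiotic and Sertoli markers, per library (points) with the mean of 3 (line). In RA-deficient PL, the library with the highest Hspa2 to Hspa8 ratio, 0.503, is the one with the lowest spermatogonia sum, 147 CPM.

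Among the 9697 other genes that averaged 10 CPM or more, those whose pattern was most like that of Hspa2 were Klhl5 (r = 0.994), Serf1 (r = 0.992) and Ttll13 (r = 0.991). The measure is Pearson's r of log2(CPM + 1) over the 9 libraries, which fall into 3 groups, so it mostly describes the difference between groups. For Hspa1l the nearest were Mmaa (r = 0.920), Chml (r = 0.886) and Rcc1l (r = 0.884), at levels of Hspa1l near the floor.

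The partners with which HSP70 works were read from lists that held 129 genes, of which 123 were tested in each comparison. Between In/B and RA-sufficient PL 49 were called, 27 higher and 22 lower, beside 45.4% of all genes. Between In/B and RA-deficient PL 32 passed, 18 higher and 14 lower, beside 23.2%. Between the PL groups 7 were called, all lower in RA-deficient PL, beside 15.5% of all genes, of which 11% were lower and 4.47% higher. The first 2 shares lie near those of all genes and the last below it. That last count was 17 without RA-deficient replicate 3 and 1 to 3 without any other single PL library. Calls over all genes moved with it, from 2383 of 15352 genes to 4484 of 15799 without RA-deficient replicate 3. They numbered 1190 to 1773 without any other single PL library. Of those 7, Dnajb13, Dnajb14, Bag5, Cdk1 and Ddit3 lost the call without any 1 of the 5 other PL libraries, Hspb8 without any of 4, and Hspb1 kept it throughout. Scaled by library size only, the split of the 32 was 10 higher and 22 lower.

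**Figure D5:**
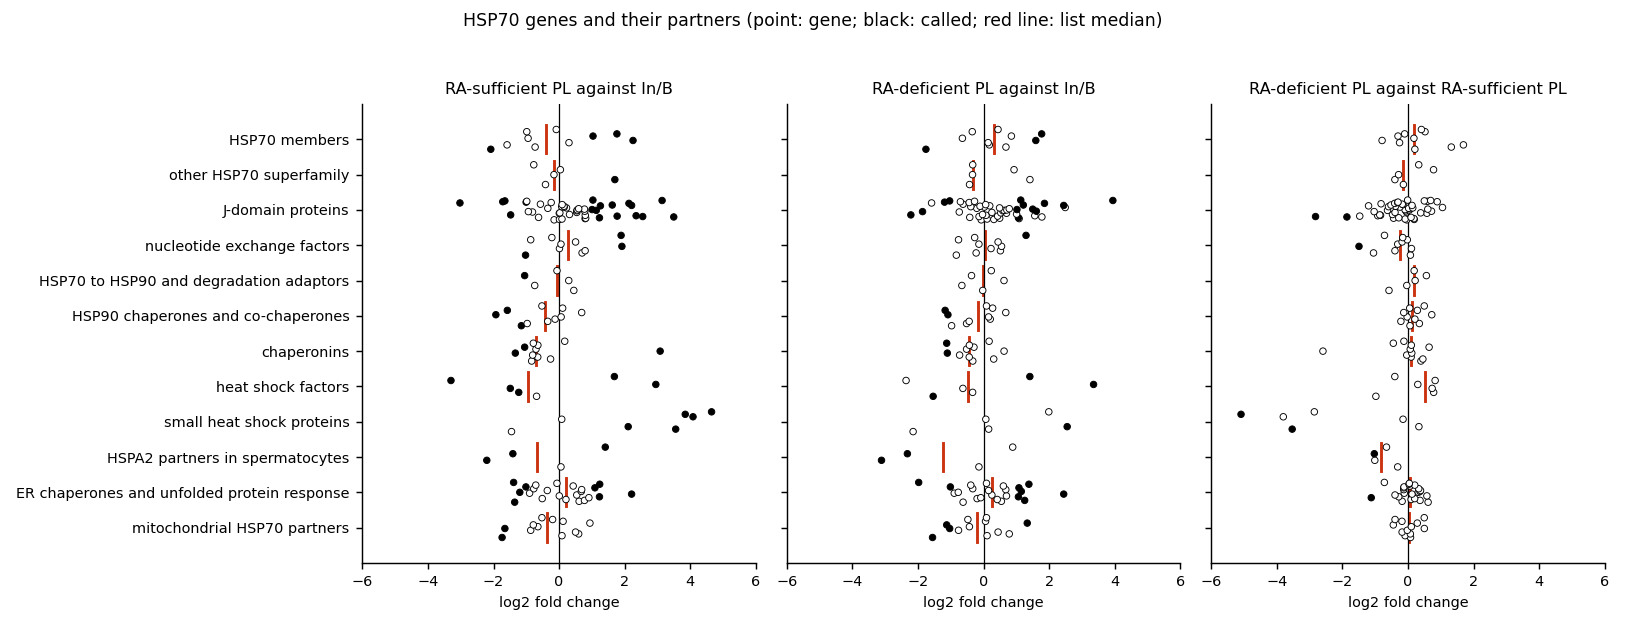
Log2 fold change of each tested HSP70 gene and partner (points; black where called) by list, with the list's median (red line), in the 3 comparisons. Chaperonins lie mostly below 0 in both comparisons with In/B, and small heat shock proteins reach the largest rises in RA-sufficient PL.

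Among J-domain proteins, the largest list, 18 of 45 tested genes differed enough for a call between RA-sufficient PL and In/B, 13 higher and 5 lower (40%, beside 45.4% of all genes). Their median log2 fold change was 0.32. The largest fall by the naming rule was that of Dnajc9, a histone chaperone partner, from 161 ± 11.5 to 47.0 ± 9.19 CPM. Dnajb1, the partner of stress-inducible HSP70, was at 75.6 ± 11.8 CPM in In/B, 127 ± 10.7 in RA-sufficient PL and 94.6 ± 14.0 in RA-deficient PL. It was not called, though against In/B it passed adjusted p in RA-sufficient PL (0.81). In RA-deficient PL against In/B 13 of 47 were called (27.7%, beside 23.2%), 9 higher and 4 lower, the latter led by Dnajb5, from 25.1 ± 3.82 to 4.79 ± 0.735 CPM. Between the PL groups 2 of 46 were called (4.35%, beside 15.5%), Dnajb14 and Dnajb13. Dnajb14 was at 30.5, 16.9 and 14.6 CPM in RA-sufficient PL and at 2.04, 0.515 and 6.38 CPM in RA-deficient PL (-2.82, SE 0.84, edgeR adjusted p = 0.0476), and without RA-deficient replicate 3 the log2 fold change was -4.0009.

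Among nucleotide exchange factors 3 of 10 were called between RA-sufficient PL and In/B (30%, beside 45.4% of all genes) and 1 of 10 between RA-deficient PL and In/B (10%, beside 23.2%). Bag5 rose from 15.3 ± 3.75 to 55.4 ± 10.5 CPM in RA-sufficient PL (1.91, SE 0.23, edgeR adjusted p = 0.000142), and Bag1 fell from 173 ± 12.9 to 81.8 ± 10.7 CPM, a call lost at the size limit without In/B replicate 1 or RA-sufficient replicate 2 (-0.93 at the least). Bag5 was at 16.1, 10.9 and 32.7 CPM in RA-deficient PL, lower than in RA-sufficient PL (-1.49, SE 0.41, edgeR adjusted p = 0.0372), and at -2.03 without RA-deficient replicate 3. Sil1, the exchange factor of Hspa5, rose from 19.1 ± 1.71 CPM in In/B to 68.0 ± 9.68 in RA-sufficient PL and 41.6 ± 3.96 in RA-deficient PL. Against In/B, 1 of 5 other HSP70 relatives was called in RA-sufficient PL and 0 of 5 in RA-deficient PL (2 by adjusted p alone). Hsph1, an HSP110 gene like Hspa4, was at 106 ± 9.21, 105 ± 16.1 and 180 ± 26.3 CPM in the 3 groups. It was not called, though in RA-deficient PL it passed adjusted p against In/B (0.93) and against RA-sufficient PL (0.78).

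The HSP90 and chaperonin systems take over clients from HSP70. Hsp90ab1, the constitutive cytosolic HSP90, fell from 3003 ± 314 CPM in In/B to 760 ± 42.5 in RA-sufficient PL (-1.93, SE 0.12, edgeR adjusted p = 1.3e-05) and to 1261 ± 375 in RA-deficient PL (-1.09, SE 0.22, edgeR adjusted p = 0.00624). The latter call was lost at the size limit without RA-deficient replicate 3 (-0.86) or In/B replicate 1. Hsp90aa1, the inducible form, was at 849 ± 83.9, 853 ± 25.2 and 841 ± 184 CPM and was not called. In that list 3 of 10 fell in RA-sufficient PL (19.3% of all genes were called lower) and 2 of 10 in RA-deficient PL (11.8% of all genes), and Ppid, a co-chaperone, was at 159 ± 22.0, 51.1 ± 4.25 and 62.7 ± 11.6 CPM. Of the adaptors between HSP70, HSP90 and degradation 1 of 5 was called in RA-sufficient PL, Stub1, a ubiquitin ligase that works with HSP70, which fell from 28.9 ± 4.91 to 13.4 ± 2.52 CPM but not without In/B replicate 2 or RA-sufficient replicate 2 (-0.91 at the least), and 0 of 5 in RA-deficient PL (2 by adjusted p alone). Chaperonins had 3 of 11 called in RA-sufficient PL (27.3%, beside 45.4% of all genes) and 2 of 11 in RA-deficient PL, both lower (18.2%, beside 23.2%). With adjusted p alone 10 of 11 passed in RA-sufficient PL, 9 of them lower, beside 65% of all genes, of which 31.2% were lower. Cct6a fell from 414 ± 24.2 to 158 ± 5.73 CPM while Cct6b, its relative of the testis, rose from 3.59 ± 1.26 to 29.2 ± 16.96 CPM, in the group with the high Sertoli sum. In RA-deficient PL Cct6a fell too, to 172 CPM, while Cct6b was at 2.88, 0.515 and 11.5 CPM and was not called (0.63, edgeR adjusted p = 0.651, and -0.91 without replicate 3).

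The list of heat shock factors, the regulators of the stress-inducible members, also held Hsf2bp and Hsbp1, which are not such factors. It had 5 of 6 genes called between In/B and RA-sufficient PL, beside 45.4% of all genes. Hsf1 fell from 148 ± 6.47 to 60.9 ± 3.13 CPM (-1.23, SE 0.11, edgeR adjusted p = 4.1e-05) and Hsf2 from 77.7 ± 2.05 to 26.7 ± 3.54 CPM. Hsf2bp, which despite its name is known for its work in meiotic recombination, rose from 19.7 ± 2.68 to 146 ± 43.8 CPM. Against In/B, Hsf5 rose in RA-sufficient PL (1.68, edgeR adjusted p = 0.000351) and in RA-deficient PL (1.41, edgeR adjusted p = 0.00309). In RA-deficient PL 3 of 6 were called against In/B, beside 23.2%, and these were Hsf5, Hsf2bp and Hsbp1. There Hsf1 was at 117, 122 and 75.2 CPM, replicate 3 being the lowest, and was not called. Hsf2, at 44.7 ± 5.28 CPM, passed adjusted p but not the size needed (-0.63). Hsf2bp rose to 179 ± 31.0 CPM and Hsbp1 fell from 209 ± 9.19 to 64.2 ± 1.22 CPM. Small heat shock proteins had 5 of 7 called in RA-sufficient PL, all higher, beside 26.1% of all genes called higher. Hspb9, known from the testis, was at 0.336, 2.99 and 1.30 CPM in In/B and at 67.2, 24.2 and 24.1 CPM in RA-sufficient PL. In RA-deficient PL 1 of 5 was called, Hspb11, at 129 ± 26.7 CPM against 24.7 ± 3.54 in In/B. Between the PL groups 2 of 6 were called, both lower, beside 11% of all genes. These were Hspb1, at 9.42, 9.58 and 13.4 CPM in RA-sufficient and 0.840, 0.515 and 1.44 in RA-deficient PL (-3.53, edgeR adjusted p = 0.00422), and Hspb8, at 5.52, 1.82 and 3.04 against 0.120, 0 and 0.175 CPM (edgeR adjusted p = 0.0212). Hspb1, Hspb7, Hspb8 and Hspb9 were highest in the RA-sufficient libraries, as was the Sertoli sum, whose part was not tested. Hspb11 was at 84.0, 101.5 and 122 CPM in RA-sufficient PL and at 129, 102 and 156 CPM in RA-deficient PL. These PL groups overlapped (0.33, edgeR adjusted p = 0.240). Hspb6 overlapped between all groups.

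Of the 4 partners of HSPA2 in spermatocytes, Cdk1 and Ccnb1 fell where Hspa2 rose, in both comparisons with In/B. Against In/B 3 were called in RA-sufficient PL and 2 in RA-deficient PL, and 1, Cdk1, between the PL groups, beside 45.4, 23.2 and 15.5% of all genes. HSPA2 is known to assist CDK1 in binding cyclin B1 late in meiotic prophase. Cdk1 fell from 78.2 ± 10.9 CPM in In/B to 28.2 ± 2.35 in RA-sufficient PL (-1.41, SE 0.15, edgeR adjusted p = 9.1e-05) and to 13.9 ± 4.49 in RA-deficient PL (-2.32, SE 0.26, edgeR adjusted p = 0.000418). Ccnb1, which encodes cyclin B1, fell from 60.5 ± 16.6 to 12.6 ± 2.71 and 6.27 ± 3.56 CPM. Shcbp1l, whose protein binds HSPA2 at the meiotic spindle, was at 32.6 ± 2.89 CPM in In/B and rose to 83.3 ± 49.2 CPM in RA-sufficient PL (1.41, SE 0.35, edgeR adjusted p = 0.00741), a call lost without RA-sufficient replicate 1 (0.80). At 33.3, 36.2 and 92.1 CPM in RA-deficient PL it was not called (0.89, and 0.26 without replicate 3). Bag6, which protects HSPA2 from degradation, was at 397 ± 25.6, 398 ± 23.1 and 321 ± 39.9 CPM and was not called in any comparison.

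In the endoplasmic reticulum, where Hspa5 works, 8 of 23 partners were called in each comparison with In/B, 4 higher and 4 lower in RA-sufficient PL and 6 higher and 2 lower in RA-deficient PL. That share of 34.8% stands beside 45.4% of all genes in the first comparison and 23.2% in the second. Dnajc3, a J-domain partner of Hspa5, rose from 79.5 ± 22.7 CPM in In/B to 353 ± 76.8 in RA-sufficient PL and 384 ± 98.2 in RA-deficient PL. Hsp90b1, the HSP90 of this compartment, was at 1295 ± 196, 2006 ± 84.2 and 1842 ± 132 CPM, with log2 fold changes of 0.69 and 0.68 against In/B that were short of a call. Xbp1, a transcription factor of the unfolded protein response, fell from 54.0 ± 11.3 to 19.9 ± 6.36 and 12.2 ± 3.09 CPM, in the opposite direction to Hspa5. Hyou1, the exchange factor of this compartment, was at 729 ± 19.7, 411 ± 27.05 and 516 ± 33.1 CPM. Against In/B it passed adjusted p but not the size needed in both PL groups (-0.77 and -0.33). Between the PL groups 1 of 23 was called (beside 15.5% of all genes), Ddit3, at 15.1 ± 4.50 CPM in RA-sufficient and 7.01 ± 0.922 in RA-deficient PL.

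Around Hspa9 in mitochondria, 2 of 12 partners were called in RA-sufficient PL, both lower (16.7%, beside 45.4% of all genes), and 4 of 12 in RA-deficient PL, 1 higher and 3 lower (33.3%, beside 23.2%). Clpp, a protease, fell from 46.5 ± 5.35 to 13.4 ± 3.36 and 14.1 ± 2.66 CPM, and Lonp1, another protease, rose from 76.6 ± 9.88 to 171 ± 19.9 CPM in RA-deficient PL. In RA-sufficient PL Lonp1 was at 103, 154 and 166 CPM and passed adjusted p but not the size needed (0.94, edgeR adjusted p = 0.00224). Between the PL groups its log2 fold change was 0.28 (edgeR adjusted p = 0.286). Hspd1, the mitochondrial HSP60, was at 297 ± 11.8, 182 ± 18.0 and 196 ± 6.91 CPM. Against In/B it passed adjusted p but not the size needed in both PL groups (-0.65 and -0.43). Its partner Hspe1 fell in RA-deficient PL (-1.12, SE 0.22, edgeR adjusted p = 0.00575). In RA-sufficient PL Hspe1 passed adjusted p but not the size needed (-0.79, edgeR adjusted p = 0.0093). Immediate early genes, which tissue dissociation can induce together with Hspa1a and Hspa1b, summed to 279 to 388 CPM in In/B, 219 to 296 in RA-sufficient PL and 386 to 401 in RA-deficient PL. Between the PL groups 3 of the 16 were called higher and 1 lower (25%, beside 15.5% of all genes), with a median log2 fold change of -0.0003. Egr1 was at 38.2, 77.2 and 86.5 CPM in RA-sufficient PL and 163, 154 and 181 in RA-deficient PL. Nr4a1 was higher too (6.77 to 14.5 against 39.8 to 50.1 CPM), and Klf6 was lower (26.9 to 55.7 against 1.40 to 9.68 CPM). The sum thus does not describe the list as a whole. The part of these genes in the levels of Hspa1a and Hspa1b was not tested.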

How the data were processed

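mRNA was measured in 9 libraries, 3 per group. The authors deposited unnormalized read counts for 24505 genes in 1 table, whose 9 columns were matched to samples by name, with 0 columns left unused. They had made stranded mRNA libraries, trimmed the reads (cutadapt 1.9), mapped them to mm9 (STAR 2.5.2b) and assigned them to genes (featureCounts). The gene annotation and the strand setting are not given in the sources used here. Totals of 12612959 to 27042274 counts per library limit the precision for Hspa1a, Hspa1b and Hspa1l, with 8 to 161 counts per library.

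Each pair of groups was fitted over all genes with edgeR 4.0.16 in R 4.3.3 (TMM scaling, filterByExpr, quasi-likelihood test, Benjamini-Hochberg). CPM used TMM over all 9 libraries. RPKM divided CPM by the length of the transcript with the longest coding region in GENCODE M1 on mm9. The tests were tested on simulated data. The members and lists were chosen with earlier results of these data known. The genes named were all members, 11 defining partners, the 3 genes most like Hspa2 and like Hspa1l, and per list and comparison the called genes with the largest rise and fall among those with at least 10 CPM and no overlap. Dnajb13, Hyou1, Hsf5, Hspb1, Hspb6, Hspb7, Hspb8, Egr1 and the other partners past adjusted p between the PL groups were named with their values known. So were Sil1, Lonp1 and Hspe1 outside RA-deficient PL. The partner lists hold 1 gene that enters their counts but is not reported here. Alternatives changed the scaling (RLE, library size), the filter (none, or 50 counts on average), the fit (1 fit over 9 libraries, a block for the replicate number, DESeq2 1.42.0) and the thresholds, or left out each library. Python 3.11.15 with matplotlib 3.10.9 drew the figures.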

Additional observations from a re-analysis of the deposited data

Results flagged for a closer look

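The genes given here are the HSP70 gene and the 20 partners whose change from In/B differed between RA-sufficient and RA-deficient PL, by adjusted p in the direct edgeR comparison of the PL groups and whatever the size. Values are log2 fold changes of RA-deficient against RA-sufficient PL. With adjusted p alone 23.6% of all genes tested passed. Among the HSP70 genes this was Hspa9 (0.41, edgeR adjusted p = 0.0339), whose adjusted p ran from 0.0198 to 0.134 with a library left out and was 0.0644 with the replicate number as a block. Higher in RA-deficient PL were the stress regulators Hsf1 (0.78, edgeR adjusted p = 0.0315) and Hsf2 (0.74, edgeR adjusted p = 0.0411) and the HSP110 gene Hsph1 (0.78, edgeR adjusted p = 0.0127). The chaperonin subunits Cct8 (0.64, edgeR adjusted p = 0.00458), Cct3 (0.45, edgeR adjusted p = 0.0138) and Cct2 (0.39, edgeR adjusted p = 0.0346) were higher too. So were the J-domain genes Dnajb9 (0.58, edgeR adjusted p = 0.0166) and Dnajc13 (0.72, edgeR adjusted p = 0.0247), and in the endoplasmic reticulum Calr (0.37, edgeR adjusted p = 0.0464) and Hyou1 (0.33, edgeR adjusted p just under 0.05).

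Lower were the small heat shock genes Hspb1 (-3.53, edgeR adjusted p = 0.00422) and Hspb8 (-5.09, edgeR adjusted p = 0.0212). The Sertoli sum was lower in RA-deficient PL too, and its part was not tested. Hsbp1, which encodes a protein that binds HSF1, was lower (-0.98, edgeR adjusted p = 0.0317), as were the exchange factors Bag5 (-1.49, edgeR adjusted p = 0.0372) and Sil1 (-0.72, edgeR adjusted p = 0.0307). Among J-domain genes Dnajb13 (-1.86, edgeR adjusted p = 0.0486), Dnajb14 (-2.82, edgeR adjusted p = 0.0476) and Dnajc15 (-0.62, edgeR adjusted p = 0.0376) were lower. The stress transcription factor Ddit3 (-1.12, edgeR adjusted p = 0.0493) and Cdk1 (-1.03, edgeR adjusted p = 0.0372) completed the list.

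With each PL library left out in turn, Hsph1, Cct8 and Hspb1 passed adjusted p in all 6 fits. Cct2 and Calr passed in 0 of them. Hyou1, Sil1, Dnajc15, Bag5, Cdk1, Ddit3, Dnajb13, Dnajb14 and Hsf1 passed only without RA-deficient replicate 3. The remaining genes passed in 2 to 4 fits. Hsf1 was at 0.98 without RA-deficient replicate 3, and its adjusted p ran up to 0.104. It was at 117 and 122 CPM in the 2 RA-deficient libraries whose spermatogonia markers were as high as in In/B, and at 75.2 CPM in replicate 3.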

How the results depend on the processing

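Of 387 log2 fold changes of members recomputed under the alternatives, 358 kept their direction and side of the threshold, 14 passed it only there, 3 no longer passed it and 12 turned. The replicate numbers did not pair the libraries, since same-numbered deviations correlated at -0.28 to 0.20, and with the number as a block partners called between the PL groups went from 7 to 4. Under that block Hspa1b and Hspa1l in RA-deficient PL against In/B turned to -0.0413 and -0.112, and with library size scaling to -0.15 and -0.19. With a library left out Hspa1a ran there from -0.34 to 1.31, Hspa1b from -0.53 to 0.52 and Hspa1l from -0.85 to 0.52. Between the PL groups Hspa1l ran from -1.25 to 0.17, Hspa5 from -0.27 to 0.0262 and Hspa14 from -0.0456 to 0.46. The cause was not tested. With adjusted p alone, which drops the size limit, 89 partners passed in RA-sufficient PL against In/B, 6 members and 61 partners in RA-deficient PL against In/B, and 1 member and 20 partners between the PL groups. Between the PL groups partners called numbered 4 with RLE scaling, 11 with DESeq2 and 1 at an adjusted p of at most 0.01. With a library left out they numbered 1 to 17, 17 without RA-deficient replicate 3, and members called 0 to 1. Genes called overall there were 2383, and 1190 to 4484 with a library left out. The germline share in In/B was 2.30% by counts and 1.44% by unique positions, and 3.34% by unique positions in RA-deficient PL. By coding length, an alternative chosen after seeing the data, it was 2.45, 7.69 and 4.38% in the 3 groups.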
